A study of Rattus norvegicus with 8 samples.

Results

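The genes described here are the subunits of the transcription factor NF-kB, the inhibitors that hold it in the cytoplasm and a pair of its activators, as measured by array in rat lung. They were chosen by name: the subunit genes Rela, Relb, Rel, Nfkb1 and Nfkb2, the inhibitor genes Nfkbia, Nfkbib and Nfkbie, and the activator genes Ikbkb and Traf2, 10 genes of the 16667 gene symbols that the array's probes could be matched to. A probe was taken for a gene when its RefSeq accession, without the version, belonged to that gene. Of the 10 genes 8 had such a probe, Nfkb1 had 2 and the others 1 each, so that 9 probes stand for the members, and all 9 passed the filter on dim probes. No probe was matched to Rel or Relb, which are absent from all that follows. Each probe was 1 spot on each array.

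The lungs came from male rats in 4 groups of 2 samples. In the first group 12 weeks of cigarette smoke were followed by extracellular vesicles (EVs) that had been isolated from human umbilical cord mesenchymal stem cells (MSCs). In the second, the same smoke exposure was followed by the MSCs themselves, and in both groups the treatment went into the trachea in week 13. The smoke group had the 12 weeks of smoke with no treatment named in the labels, and the naive group breathed normal air. RNA was taken from a piece of whole lung, and the labels used here give neither strain nor age, and do not say that the replicates of a group are separate animals, and the p-values therefore cover only sample-to-sample spread, of which some or all may be technical. The cells given were human and the arrays carry rat probes.

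NF-kB is a dimer of Rel family proteins. In resting cells it is bound by IkB proteins and kept out of the nucleus. Signals from receptors for tumour necrosis factor, interleukin 1 or microbial products pass through adaptors such as TRAF2 to the IkB kinase complex, whose catalytic subunit IKK-beta marks IkB proteins for destruction, and the freed dimer then enters the nucleus and switches on genes of inflammation and survival. Several of those targets encode the pathway's own parts, among them IkB-alpha. In the lung the pathway is best known from the epithelium and the macrophages that meet smoke and microbes first. An array measures RNA only, and neither the phosphorylation nor the location of these proteins was measured.

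Signal differed in scale between the arrays. An array's 75th percentile stood at 762 and 483 on the EV arrays, 246 and 256 on the MSC arrays, 3235 and 2677 on the smoke arrays and 568 and 362 on the naive arrays. The smoke arrays therefore stood at 6.49 times the naive arrays by geometric mean, while the kit's E1A spike-in controls stood at 0.839 times their naive signal. All 8 arrays lie on 1 slide, and each group fills 1 column of it, so slide column and group cannot be told apart. Within each group the first replicate lies in row 1 of the slide and the second in row 2. The 7 epithelial and 4 endothelial markers of lung were well above background on every array. The summed level of the epithelial markers, in units of each array's 75th percentile, was 1007 and 1203 on the EV arrays, 1361 and 832 on the MSC arrays, 463 and 487 on the smoke arrays and 1199 and 1534 on the naive arrays, and was thus lowest on the smoke arrays. That sum leans most on Sftpc, the brightest of these markers on every array. Before scaling, Sftpc read 549070 and 490446 on the smoke arrays and 409798 and 341494 on the naive arrays. In smoke against naive 3 of the 7 markers were called lower and 0 higher, beside 33.7% and 12.8% of all probes. In log2 units Sftpa1 stood higher in smoke, at 5.45 and 5.12 against 4.87 and 4.50 in naive lung. Of 10 leukocyte markers 8 had a probe, all 8 well above background on every array, with summed levels of 13.7 to 15.8 on EV, 8.09 to 16.0 on MSC, 7.86 to 12.9 on smoke and 7.13 to 10.6 on naive arrays. Such a sum leans on its brightest markers, and single markers differed in direction. In log2 units S100a9 stood at 3.25 and 3.02 on EV, 2.12 and 3.53 on MSC, 1.41 and 0.83 on smoke and 1.23 and 2.59 on naive arrays. Cd68 was highest on the smoke arrays, at 1.56 and 1.17, and Cd3e was lowest there, at -4.20 and -4.86. Heart and skeletal muscle markers summed to 30.1 on the first EV array and 71.2 on the second MSC array, against 1.27 to 4.50 on the other six. The part of cell makeup in the results below was not tested, and in whole tissue fewer cells of a type and less RNA per cell cannot be told apart.

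The promoter windows of the members were searched for the recognition sequence of NF-kB itself. RefSeq windows of 300 bases, 250 before to 50 after the annotated start, were available in the GRCr8 assembly for 8 of the 10 genes (not for Relb and Ikbkb). The NF-kB consensus, searched by name on both strands, was present in 5 of these 8 windows and in 1142 of all 27457 windows (4.16%). The 4 windows below are shown because the results turn on these genes: Rela, Nfkb1 and Nfkb2 differed between groups, and Nfkbia is the classical target gene among the members. Capitals mark a match to the consensus, and each window is written 5′ to 3′ in the direction of the gene.
Rela (chr1:212354086-212354385, plus strand): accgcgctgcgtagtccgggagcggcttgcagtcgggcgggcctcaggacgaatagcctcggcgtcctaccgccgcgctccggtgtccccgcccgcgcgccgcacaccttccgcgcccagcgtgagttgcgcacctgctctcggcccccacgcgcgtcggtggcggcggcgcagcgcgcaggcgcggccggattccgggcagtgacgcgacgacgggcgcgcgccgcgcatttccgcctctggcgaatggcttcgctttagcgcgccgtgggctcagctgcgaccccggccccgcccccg
Nfkb1 (chr2:226805413-226805712, minus strand): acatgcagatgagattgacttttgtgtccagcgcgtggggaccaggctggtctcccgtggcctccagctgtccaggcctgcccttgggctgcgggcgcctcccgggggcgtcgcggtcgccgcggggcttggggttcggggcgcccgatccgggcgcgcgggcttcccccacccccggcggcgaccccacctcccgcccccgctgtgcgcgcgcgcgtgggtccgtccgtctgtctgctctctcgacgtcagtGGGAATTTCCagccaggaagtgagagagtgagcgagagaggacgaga
Nfkb2 (chr1:255108124-255108423, plus strand): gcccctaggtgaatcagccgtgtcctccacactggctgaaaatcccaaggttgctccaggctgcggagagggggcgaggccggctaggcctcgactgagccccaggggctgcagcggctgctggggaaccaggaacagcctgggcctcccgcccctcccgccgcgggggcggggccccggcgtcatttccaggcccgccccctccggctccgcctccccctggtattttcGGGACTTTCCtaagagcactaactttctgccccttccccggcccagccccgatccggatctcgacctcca
Nfkbia (chr6:78597023-78597322, minus strand): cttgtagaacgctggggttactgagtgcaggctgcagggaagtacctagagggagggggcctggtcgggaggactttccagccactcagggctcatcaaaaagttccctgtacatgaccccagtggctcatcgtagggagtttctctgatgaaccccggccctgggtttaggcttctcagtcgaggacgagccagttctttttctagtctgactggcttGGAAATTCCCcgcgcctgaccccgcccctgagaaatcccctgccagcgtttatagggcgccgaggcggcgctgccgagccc
The Rela window held no match. In Nfkb1 the match GGGAATTTCC began at base 3 after the start, and in Nfkb2 the match GGGACTTTCC began 20 bases before it. In Nfkbia the match GGAAATTCCC, the reverse complement of the consensus, began 31 bases before the start. Nfkbie held GGGGGATTCC, 164 bases before its start, and Rel held a match 82 bases before its own, whereas the windows of Nfkbib and Traf2 held none. A match in these letters is a description of the window and not evidence that the factor was bound there.

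Levels below are log2 of the processed signal minus the 75th percentile of the same array. Differences between groups are on the same log2 scale, fitted with limma over all 8 arrays, and a difference is called when its p-value, adjusted over all 29612 probes kept by the Benjamini-Hochberg method, is under 0.05. A difference on this scale is thus set against the remaining probes on an array. A second scale sets each array by its E1A controls, which moves the difference of every probe by the same amount, 2.95 for smoke against naive, and -2.47 for EV and -4.01 for MSC against smoke. On that spike-in scale a rise in smoke or a fall after treatment could therefore not turn.

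Rela encodes p65, the subunit that carries the main activation domain of the factor. Its level was -1.78 and -1.98 in EV-treated lungs, -2.67 and -2.29 in MSC-treated lungs, 0.48 and 0.11 in smoke-exposed lungs and -1.97 and -2.34 in naive lungs. The smoke samples stood above all 6 others, and the other groups lay close together. Rela rose in smoke-exposed against naive lung by 2.45 (SE 0.31, limma adjusted p = 0.00233), a 5.47-fold difference. It fell in EV-treated lung by 2.18 (SE 0.31, limma adjusted p = 0.00438) and in MSC-treated lung by 2.78 (SE 0.31, limma adjusted p = 0.000374), both against untreated smoke-exposed lung. These comparisons share the smoke samples. Before any scaling the Rela signal was 222 and 123 on the EV arrays, 38.6 and 52.2 on the MSC arrays, 4528 and 2896 on the smoke arrays and 146 and 71.6 on the naive arrays. Rela kept its direction and its call in each of these 3 comparisons with every single array left out and with each other setting tried. Changes of filter or of fit leave the difference itself unchanged and could not turn its direction.

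Nfkb1 encodes p105, the precursor of the p50 subunit that pairs with p65 in the most common form of the factor. The brighter of its 2 probes stood at -2.25 and -2.79 in EV-treated lungs, -4.61 and -2.47 in MSC-treated lungs, -0.39 and -0.66 in smoke-exposed lungs and -2.75 and -3.06 in naive lungs. Again the smoke samples were above all others, and the first MSC array was far below the second and not well above background. This probe rose in smoke-exposed lung by 2.39 (SE 0.63, limma adjusted p = 0.0185). Against smoke it fell by 2.00 in EV-treated lung (SE 0.63, adjusted p = 0.0396) and by 3.02 in MSC-treated lung (SE 0.63, adjusted p = 0.00481), by limma. The dimmer Nfkb1 probe stood at -4.98 and -5.34 in EV-treated, -4.61 and -4.58 in MSC-treated, -4.24 and -4.77 in smoke-exposed and -5.04 and -5.07 in naive lungs. None of its differences was called, with 0.55 in smoke against naive (95% interval -0.15 to 1.24), -0.65 for EV and -0.09 for MSC against smoke. It was not well above background on either MSC array or on the second naive array, and with normexp background correction its 3 differences turned to -1.16, 0.82 and 1.78 and were called (limma adjusted p = 0.00143, 0.0172 and 1.68e-05), lower in smoke and higher after both treatments, against the direction of the brighter probe. With quantile normalization they were called in the direction of the brighter probe, at 1.13, -1.21 and -1.11. The 2 probes of Nfkb1 thus disagree under normexp. On the percentile scale they also differ in MSC against smoke, with 95% intervals of -4.48 to -1.55 for the brighter and -0.79 to 0.61 for the dimmer probe.

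Nfkb2 encodes p100, which is processed to the p52 subunit of the alternative pathway and can also act as an inhibitor. It stood at -2.68 and -2.96 in EV-treated lungs, -2.99 and -1.65 in MSC-treated lungs, -0.85 and -1.58 in smoke-exposed lungs and -3.03 and -2.56 in naive lungs. The smoke samples were the highest, though the second MSC sample came within a narrow margin of the lower of them. Nfkb2 rose in smoke-exposed against naive lung by 1.58 (SE 0.48, limma adjusted p = 0.0310) and fell in EV-treated against smoke-exposed lung by 1.61 (SE 0.48, limma adjusted p = 0.0343). In MSC-treated against smoke-exposed lung it stood at -1.10 (95% interval -2.23 to 0.02, limma adjusted p = 0.0833) and did not pass. Without the second MSC array that difference was -1.77 and passed.

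Nfkbia encodes IkB-alpha, the inhibitor that NF-kB itself induces and that closes the loop after a signal. Its level was 4.31 and 3.87 in EV-treated lungs, 3.42 and 2.62 in MSC-treated lungs, 3.40 and 3.75 in smoke-exposed lungs and 2.65 and 3.30 in naive lungs. EV-treated lungs were the highest and smoke-exposed lungs next, without overlap between these groups and naive lungs, while the MSC samples overlapped both smoke and naive samples. No difference of Nfkbia was called on the percentile scale. It stood at 0.60 in smoke against naive (95% interval -0.32 to 1.51), at 0.52 in EV against smoke (interval -0.40 to 1.43) and at -0.55 in MSC against smoke (interval -1.46 to 0.36). Other settings called some of them. In smoke against naive it passed under normexp, at 0.75, and with quantile normalization, at 1.13 (limma adjusted p = 0.0431 and 0.0446), and in MSC against smoke at -0.80 and -1.28 (adjusted p = 0.0291 and 0.0201). On the spike-in scale the differences were 3.55, -1.96 and -4.56, all called, so the EV difference turned. In unscaled signal Nfkbia read 15096 and 7044 on the EV arrays, 2639 and 1576 on the MSC arrays, 34105 and 35922 on the smoke arrays and 3571 and 3564 on the naive arrays.

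Nfkbib encodes IkB-beta, a slower inhibitor that is not rebuilt as quickly after a signal. Its levels were -2.66 and -3.47 in EV-treated lungs, -2.76 and -3.02 in MSC-treated lungs, -1.69 and -1.89 in smoke-exposed lungs and -3.31 and -3.30 in naive lungs. The smoke samples were above the other 6, as for Rela. Nfkbib rose in smoke-exposed lung by 1.51 (SE 0.34, limma adjusted p = 0.0103), and against smoke it fell by 1.27 in EV-treated lung (adjusted p = 0.0228) and by 1.10 in MSC-treated lung (adjusted p = 0.0247). Nfkbie encodes IkB-epsilon, another of the IkB inhibitors. It read -2.63 and -2.48 in EV-treated lungs, -1.98 and -1.46 in MSC-treated lungs, -2.45 and -2.77 in smoke-exposed lungs and -2.40 and -3.07 in naive lungs. For Nfkbie the MSC samples, not the smoke samples, were the highest, and smoke and naive lungs overlapped. Its difference in MSC against smoke was 0.89 (95% interval 0.09 to 1.69, limma adjusted p = 0.0559) and did not pass, and on the spike-in scale it was -3.12. It was 1.15 without the first MSC array and an unchanged 0.89 without either naive array. It passed as a rise under normexp, at 1.22 (limma adjusted p = 0.000426), and at 0.89 where all 8 arrays had to be well above background. Over the settings that kept all arrays its limma adjusted p ran from 0.000145 to 0.300, the lowest on the spike-in scale, where the direction was the opposite. The gene table behind the probe names lists another gene, Slc35b2, as a synonym of the Nfkbie record, so the identity of this probe is less certain than the others.

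Ikbkb encodes IKK-beta, the kinase that marks IkB proteins for destruction. It stood at -0.27 and 0.18 in EV-treated lungs, -0.05 and -0.69 in MSC-treated lungs, -0.58 and -0.24 in smoke-exposed lungs and -0.56 and -0.39 in naive lungs. The groups overlapped in 5 of the 6 comparisons, and the whole spread of its 8 levels was narrow. The differences were 0.07 in smoke against naive (95% interval -0.71 to 0.85), 0.37 in EV against smoke (interval -0.41 to 1.15) and 0.04 in MSC against smoke (interval -0.74 to 0.82), and on the spike-in scale the last pair became -2.10 and -3.97. Traf2 encodes an adaptor that joins tumour necrosis factor receptors to the IkB kinases. Its levels were -4.02 and -3.99 in EV-treated lungs, -5.63 and -3.43 in MSC-treated lungs, -1.62 and -2.23 in smoke-exposed lungs and -4.32 and -4.55 in naive lungs. The smoke samples were the highest, and the first MSC array and the second naive array were not well above background. Traf2 rose in smoke-exposed lung by 2.51 (SE 0.64, limma adjusted p = 0.0165). It fell against smoke by 2.08 in EV-treated lung (SE 0.64, limma adjusted p = 0.0366) and by 2.61 in MSC-treated lung (SE 0.64, limma adjusted p = 0.00981).

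**Figure D1:**
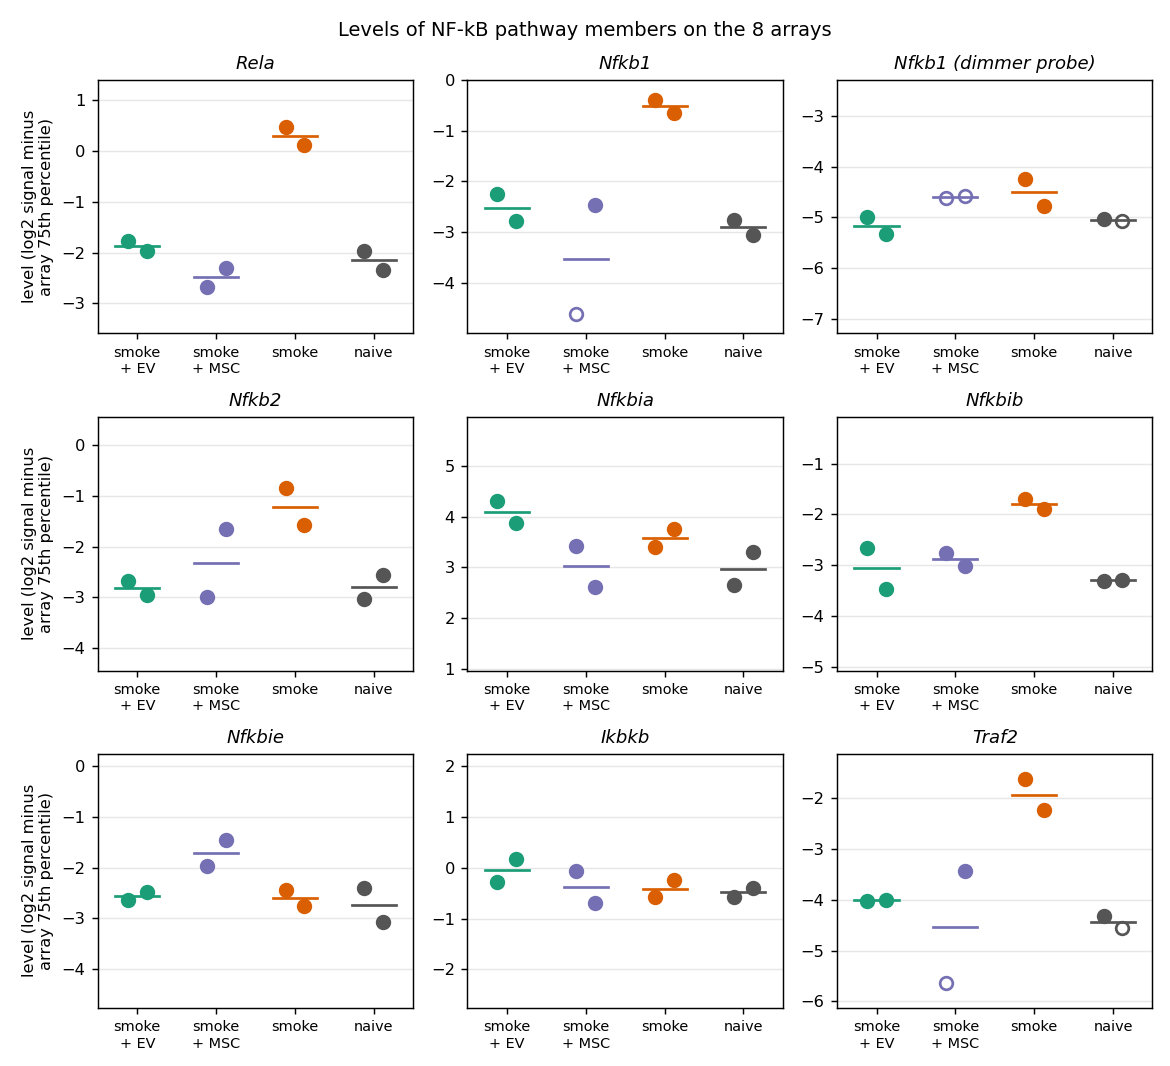
Level of each member probe on the 8 arrays (log2 signal minus the array's 75th percentile, vertical axes of equal length) by group; points are arrays, open where the probe was not well above background, and bars are group means. For Rela, Nfkb1, Nfkb2, Nfkbib and Traf2 both smoke points lie above the points of every other group, while Nfkbie is highest in the MSC group and Ikbkb hardly differs.

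Put in order of their mean levels, Rela, the brighter Nfkb1 probe and Traf2 share 1 order, which runs smoke, EV, naive, MSC. In each of these only the first step, from smoke to EV, passed by limma, and the neighbours after it did not differ beyond their spread (adjusted p from 0.551 to 0.979). Nfkb2 ran smoke, MSC, naive, EV with no step between neighbours passing (adjusted p from 0.0833 to 0.998), and Nfkbib ran smoke, MSC, EV, naive with the first step passing. Nfkbia ran EV, smoke, MSC, naive, and Nfkbie ran MSC, EV, smoke, naive, in both cases with no neighbours apart by limma.

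Smoke against naive addresses what the exposure did to the pathway's RNA. Of the 9 member probes 5 rose (Rela, the brighter Nfkb1 probe, Nfkb2, Nfkbib and Traf2), 0 fell and 4 were not called. Over all probes limma called 12.8% higher and 33.7% lower. The median member difference was 1.51, against -0.56 over all probes, and all 9 members lay above that median. The groups did not overlap for 7 of the 9 members and for 78.8% of all probes. With the second scaling, to the spike-in controls, all 9 members rose, with a median of 4.46, but 83.1% of all probes rose there too, with a median of 2.39. Without the first smoke array only Rela of the 5 kept its call, and without either naive array Rela and Nfkbib did.

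EV against smoke asks what the vesicles did after the exposure. The same 5 probes fell (Rela, the brighter Nfkb1 probe, Nfkb2, Nfkbib and Traf2) and 0 rose. Among all probes 10.6% were called lower and 28.4% higher. The member median was -1.27, against 0.50 over all probes. Groups did not overlap for 7 of 9 members and 82.2% of probes. On the spike-in scale all 9 fell, with a median of -3.75, where 73.8% of all probes fell and the median of all was -1.97. Only Rela kept its call without either smoke array or without the second EV array, Rela and Nfkbib did without the first EV array, and Rela, Nfkb2 and Nfkbib did without either naive array. With no filter on dim probes Rela alone was called.

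MSC against smoke puts the same question for the cells. Here 4 member probes fell (Rela, the brighter Nfkb1 probe, Nfkbib and Traf2) and 0 rose, while limma called 16.9% of all probes lower and 41.9% higher. The member median was -1.10, against 0.67 over all probes, and groups did not overlap for 6 of 9 members and 80.1% of probes. With scaling to the spike-in controls all 9 fell, with a median of -5.11, where 88.3% of all probes fell and the median of all was -3.33. Rela and Nfkb1 kept their calls without the first smoke array. Nfkbib lost its call without either smoke array or without the second MSC array, with limma adjusted p of 0.120, 0.0650 and 0.0825, and Traf2 without the first smoke array (0.0641). Under normexp the differences of Nfkbib and Traf2 shrank to -0.19 and -0.28 and their calls were lost. The fall of Nfkb1 and Traf2 rests in part on the first MSC array, where both were not well above background, yet without it their differences were -1.95 and -1.51 and both kept their calls. The smoke arrays, on which these 3 comparisons rest, were also the bright ones, and the part of that brightness was not tested.

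**Figure D2:**
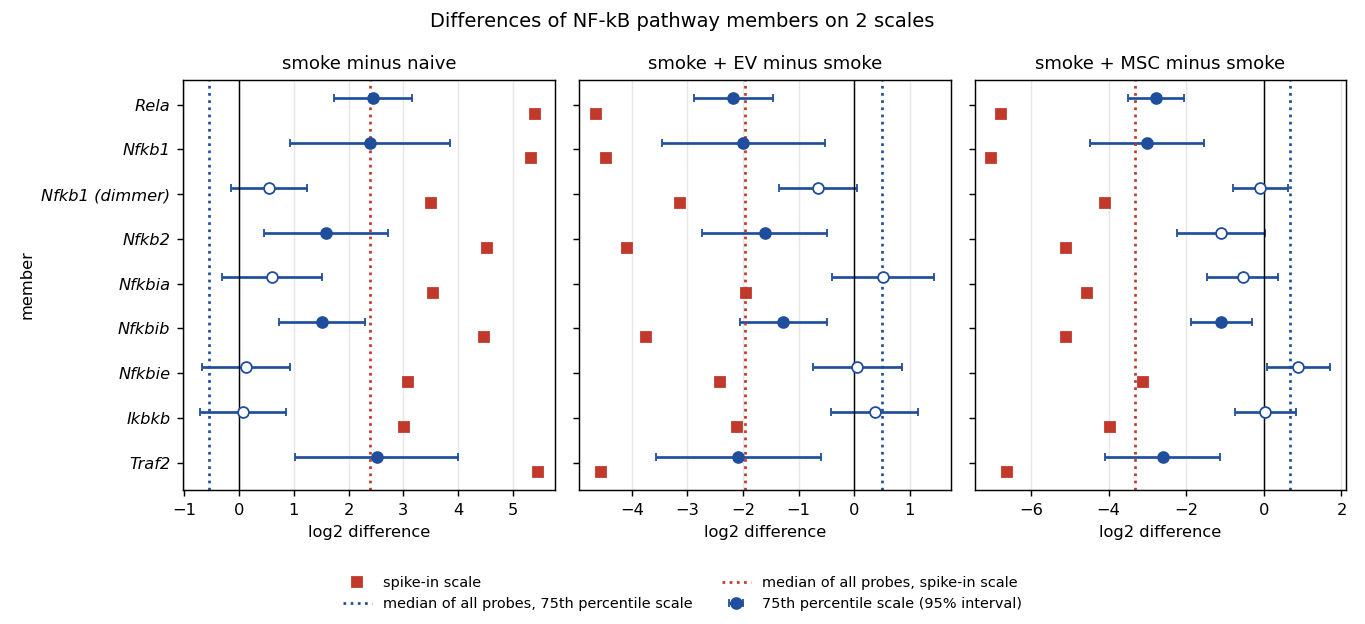
Log2 difference of each member in 3 comparisons; circles with 95% intervals are on the 75th percentile scale and squares on the spike-in scale, filled where the limma adjusted p is under 0.05, and dotted lines mark the median of all probes on each scale. On both scales Rela, the brighter Nfkb1 probe, Nfkb2, Nfkbib and Traf2 lie farther from 0 than that median. Each of them has the same sign on both scales within a panel. On the 75th percentile scale the median lies on the other side of 0 from them, and every square is shifted with the median of all probes.

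**Figure D3:**
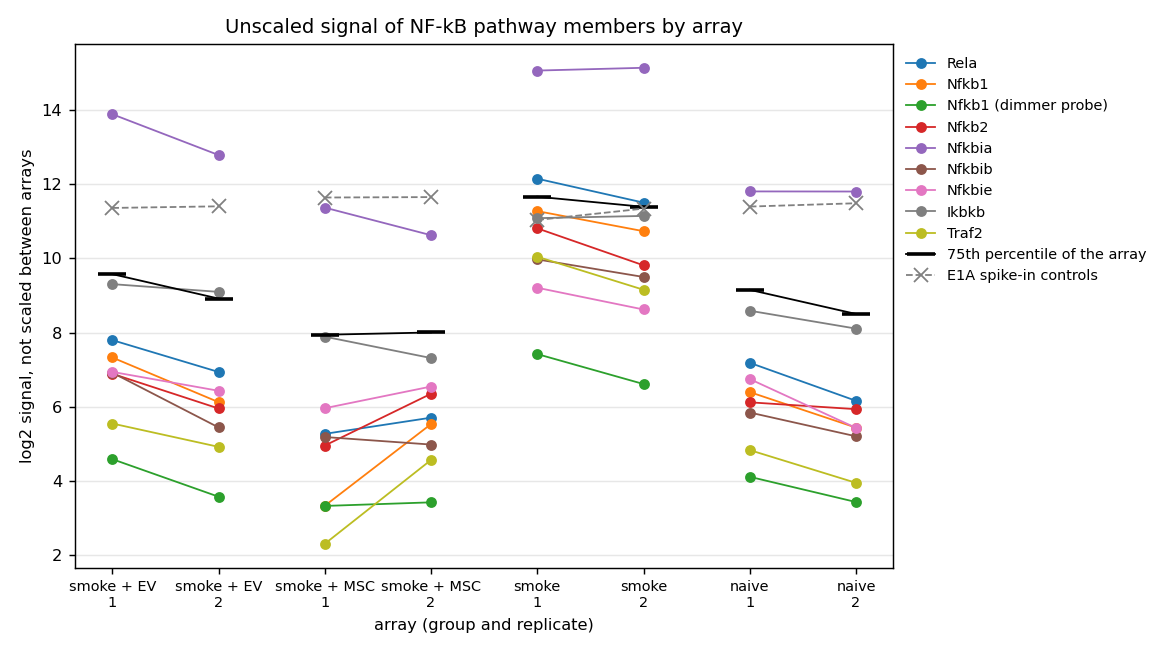
Log2 signal of each member on the 8 arrays before scaling, with the array's 75th percentile (black bars) and the mean of the E1A spike-in controls (crosses). Members, like the 75th percentile, are highest on the smoke arrays, while the E1A controls lie between 11.0 and 11.6 on all 8 arrays.

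EV against MSC compared the treatments directly. No member was called by limma, while 1.55% of all probes were called higher and 4.29% lower. At an unadjusted p under 0.05 there were 2 members, against 30.4% of all probes. They were Nfkbia, at 1.06 (95% interval 0.15 to 1.98, adjusted p = 0.121), and Nfkbie, at -0.84 (interval -1.64 to -0.04, adjusted p = 0.150). Nfkbia kept its direction under normexp and quantile normalization. It passed under normexp, at 1.25 (limma adjusted p = 0.0134), where 15269 of 29612 probes were called. The spike-in scale adds 1.54 to every difference in this comparison, so Nfkbia could not turn there, and Nfkbie became 0.70. Rela stood at 0.61 (interval -0.11 to 1.32). On the spike-in scale 5 members were called higher in EV-treated than MSC-treated lung (Rela, the brighter Nfkb1 probe, Nfkbia, Ikbkb and Traf2), as were 40.3% of all probes. Groups did not overlap for 4 of 9 members and 60.9% of probes.

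EV against naive and MSC against naive ask whether treated lungs stood apart from lungs that never met smoke. In neither was a member called by limma, and the calls over all probes were 0% in each direction. In EV against naive 1 member had an unadjusted p under 0.05, against 4.2% of all probes: Nfkbia, at 1.11 (95% interval 0.20 to 2.03, adjusted p = 0.961), higher in both EV samples than in both naive samples. It was positive under normexp and quantile normalization, and the spike-in scale, which adds 0.48 here, could not turn it. In MSC against naive 1 member did, against 21.6% of all probes: Nfkbie, at 1.02 (interval 0.22 to 1.82, adjusted p = 0.166), which was -0.04 on the spike-in scale. Rela stood at 0.28 in EV against naive (interval -0.44 to 0.99) and at -0.33 in MSC against naive (interval -1.04 to 0.38), the last turning to 0.07 under normexp. These intervals do not show that the levels were alike. The groups did not overlap for 3 of 9 members in each of these comparisons, against 37.2% and 49.0% of all probes.

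The members followed Rela to different degrees over the 8 arrays. Pearson's r with Rela, given as a description since all points share the 4 groups and the brightness of the smoke arrays, was 0.93 for the brighter Nfkb1 probe, 0.92 for Traf2, 0.87 for Nfkbib and 0.79 for Nfkb2. It was 0.48 for the dimmer Nfkb1 probe, 0.23 for Nfkbia, -0.20 for Ikbkb and -0.31 for Nfkbie. Outside the family the 5 genes most like Rela, among 11778 candidate probes of other genes that were well above background on all 8 arrays, included Nedd4, which encodes a ubiquitin ligase, Apmap, Gmpr, which encodes guanosine monophosphate reductase, and Maea. The r of these 4 with Rela lay between 0.996 and 0.999. Of the candidates 8.11% had an r over 0.9, so a pattern of this kind was common on these arrays. Nedd4 averaged -0.11 in EV-treated, -0.77 in MSC-treated, 2.11 in smoke-exposed and -0.45 in naive lungs.

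The rest of the pathway was read from 7 lists of 83 genes, of which 68 had a probe and 66 passed the filter, each gene by its brightest kept probe. In smoke against naive 13 of the 66 rose (19.7%) and 17 fell (25.8%), beside 12.8% and 33.7% of all probes. In EV against smoke 14 rose (21.2%) and 8 fell (12.1%), beside 28.4% and 10.6%. After MSCs, again against smoke, 23 rose (34.8%) and 12 fell (18.2%), beside 41.9% and 16.9%. Their median differences were -0.17, 0.20 and 0.32, against -0.56, 0.50 and 0.67 over all probes. In EV against MSC 2 rose and 0 fell, and none was called against naive lung in either treatment by limma. Under both normexp and quantile normalization 17 of the 17 genes that fell in smoke kept their direction, as did 14 of the 14 that rose after EVs and 22 of the 23 that rose after MSCs. Of the opposite calls 6 of 13, 4 of 8 and 9 of 12 did, the others turning under normexp. On the spike-in scale, where only calls against the common shift can turn, 1 of the 17, 1 of the 14 and 0 of the 23 kept their direction. With scaling to the spike-in controls 63 of the 66 rose in smoke against naive and 0 fell, 57 fell in EV against smoke, and 63 fell in MSC against smoke. Of all probes 83.1% rose, 73.8% fell and 88.3% fell in these comparisons on that scale.

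Among receptors 1 of 9 rose in smoke and 2 fell, beside 12.8% and 33.7% of all probes. Tnfrsf1a, the main receptor for tumour necrosis factor, stood at 1.91 in EV-treated, 2.40 in MSC-treated, 0.69 in smoke-exposed and 2.34 in naive lungs, and fell in smoke by 1.65 (limma adjusted p = 0.00897), a difference that turned to 1.30 on the spike-in scale. Cd40, the costimulatory receptor of B cells and antigen-presenting cells, fell in smoke by 1.94 and was higher than smoke by 2.10 after EVs and by 2.51 after MSCs, though these turned to 1.01, -0.38 and -1.50 on the spike-in scale and its other probes ranged from -0.43 to 0.94 in smoke. Tlr4, the receptor for bacterial lipopolysaccharide, fell in MSC-treated against smoke-exposed lung by 2.25 (limma adjusted p = 0.0127) but under normexp the difference was -0.22 and not called (adjusted p = 0.558). Tnfrsf11a, the receptor RANK, was not well above background in EV-treated or naive lungs. Neither of these groups let it pass the filter on dim probes, and the smoke group did. For its fold differences, lower levels were raised to the array's lowest level of any probe well above background. That level is no ceiling, so the folds are not strict bounds. On the second naive array it was -5.06, yet Traf2 at -4.55 was not well above background. Set this way, Tnfrsf11a was 1.06-fold higher in smoke-exposed than naive lung and 1.36-fold lower in EV-treated than smoke-exposed lung. Both directions turned under normexp. There smoke against naive was called at -1.54 (limma adjusted p = 0.000144), so these folds hold for the processed signal only.

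Among adaptors 3 of 13 rose in smoke and 1 fell, beside 12.8% and 33.7% of all probes. Ripk1, a kinase that works beside TRAF2 at the receptor, averaged -2.16 in MSC-treated, -0.74 in smoke-exposed and -2.00 in naive lungs. It rose in smoke by 1.26 (limma adjusted p = 0.00810) and fell after MSCs by 1.42 (adjusted p = 0.00285). Its direction was the same under normexp and quantile normalization, and the spike-in scale could not turn it. Traf1, a partner of TRAF2, rose in smoke by 1.18 and fell after EVs by 1.55 (limma adjusted p = 0.0436 and 0.0207), but turned to -0.56 and 0.19 under normexp. Card9, an adaptor of fungal sensing, was not well above background in MSC-treated or naive lungs. Neither of these groups let it pass the filter on dim probes, and the smoke group did. Set as for Tnfrsf11a, it was 3.54-fold higher in smoke-exposed than naive lung and 2.35-fold lower in MSC-treated than smoke-exposed lung. These are not strict bounds either. Its fitted differences turned under normexp, so these folds hold for the processed signal only. Myd88, the adaptor of Toll-like and interleukin 1 receptors, fell in smoke by 1.34 (limma adjusted p = 0.0162), which turned to 1.61 on the spike-in scale.

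Of the IkB kinase complex and the kinases around it 2 of 9 rose in smoke and 4 fell, beside 12.8% and 33.7% of all probes. Tbk1, a kinase related to IKK-beta, was not well above background in EV-treated, MSC-treated or naive lungs. It thus passed the filter on dim probes through the smoke arrays alone, where it was high. With lower levels raised to the lowest level of any probe well above background, it was 2.08-fold higher in smoke-exposed than naive lung. Against smoke-exposed lung it was 2.65-fold lower after EVs and 1.72-fold lower after MSCs, set in the same way. These are not strict bounds. The dimmer Nfkb1 probe, at -4.58 on the second MSC array, was not well above background, and Tbk1 averaged -4.77 in smoke-exposed lung. The fitted differences of Tbk1 turned under normexp, where smoke against naive was called at -1.14 (limma adjusted p = 0.00199). These folds therefore hold for the processed signal only. Map3k7, which encodes TAK1, the kinase above IKK-beta, fell in smoke by 1.65 (limma adjusted p = 0.00625), but its other probe stood at 2.12 and its own difference turned to 1.30 on the spike-in scale. Map3k8, a kinase held by p105, fell after MSCs by 1.90 (limma adjusted p = 0.0159), but under normexp the difference was -0.27 and not called (adjusted p = 0.473). Of the other IkB-like genes Nfkbil1 fell in smoke by 1.22, which turned to 1.73 on the spike-in scale, and Bcl3 was not called.

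For the degradation machinery and coactivators the direction differed between subunits of 1 ligase. Cul1, the scaffold of the ligase that marks IkB for destruction, averaged -2.03 in EV-treated, -2.72 in MSC-treated, -0.05 in smoke-exposed and -2.34 in naive lungs. It rose in smoke by 2.29 (limma adjusted p = 0.00346) and fell by 1.97 after EVs (adjusted p = 0.00724) and by 2.66 after MSCs (adjusted p = 0.000806). Its direction was the same under normexp and quantile normalization. Btrc, the subunit of that ligase that recognises IkB, fell in smoke by 1.58 and rose by 1.55 after EVs and by 2.15 after MSCs on the percentile scale, with its other probe in the same direction at -0.78, 0.67 and 0.89, but all of these turned on the spike-in scale, at 1.37, -0.92 and -1.86. The common shift on that scale runs with the differences of Cul1 and against those of Btrc, so it could turn only Btrc.

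Of 8 negative regulators 2 rose in smoke and 2 fell, beside 12.8% and 33.7% of all probes. Tnip1, a ubiquitin-binding partner of the inhibitor A20, rose in smoke by 1.26 (limma adjusted p = 0.0142) and fell after EVs by 1.27 (adjusted p = 0.0171), keeping its direction under normexp and quantile normalization. Pdlim2, which promotes the removal of nuclear p65, rose in smoke by 1.20 (limma adjusted p = 0.0141) and fell after MSCs by 1.60 (adjusted p = 0.00276), also in the same direction under both. The spike-in scale could turn neither Tnip1 nor Pdlim2. Otulin, a deubiquitinase, fell in smoke by 1.64, but its other probes ranged from -0.34 to 0.17 and it turned to 1.31 on the spike-in scale.

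Of 18 target genes 4 rose in smoke and 3 fell, where 12.8% of all probes rose and 33.7% fell, and their median was 0.26, against -0.56 over all probes. Cxcl1, a neutrophil chemokine, averaged -1.62 in EV-treated, -3.69 in MSC-treated, 0.19 in smoke-exposed and -2.59 in naive lungs, the order of groups that Rela has. It fell in MSC-treated against smoke-exposed lung by 3.88 (limma adjusted p = 0.000249) and was higher in EV-treated than MSC-treated lung by 2.08, a difference that was 0.63 and not called under normexp (adjusted p = 0.0720). Lcn2, the antibacterial lipocalin of neutrophils and epithelium, fell after EVs by 1.43 (limma adjusted p = 0.0136) and after MSCs by 3.52 (adjusted p = 0.000257), and Ccl5, a T cell chemokine, fell after MSCs by 3.50 (adjusted p = 0.00313). Both fell under normexp and quantile normalization too, and the spike-in scale could not turn them. Bcl2l1, which encodes the survival protein BCL-XL, went the other way: it fell in smoke by 2.97 (limma adjusted p = 0.00730), a difference that all but vanished at -0.02 on the spike-in scale, and Nos2, the inducible nitric oxide synthase, fell by 2.05, which turned to 0.90 there. Leukocyte markers moved unevenly beside these lists, with Cd68 of macrophages at 0.91 and Cd3e of T cells at -2.45 in smoke against naive, the only 2 called of 8. Before scaling, the Cd3e signal was 177 and 92.3 on the smoke arrays and 124 and 93.1 on the naive arrays, which overlap. Itgam, not called, went against Cd68, at -2.31 and -2.91 in smoke-exposed and -0.80 and -1.97 in naive lungs.

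**Figure D4:**
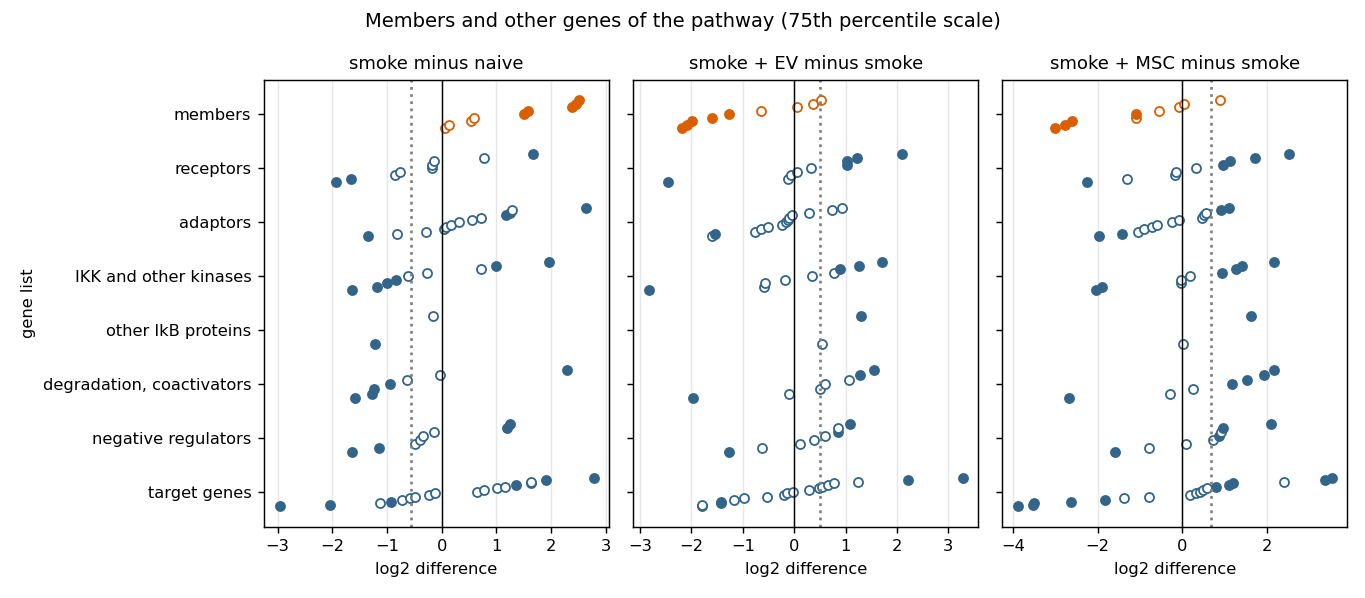
Log2 differences on the 75th percentile scale for the member probes (top row) and 7 lists of other pathway genes in 3 comparisons; each point is a member probe or a gene, filled where the limma adjusted p is under 0.05, and the dotted line is the median of all probes. The called members all lie to the right of 0 in smoke and to its left after either treatment, while called genes of 6 of the 7 lists lie on both sides of 0 in smoke against naive.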

How the data were processed

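RNA of 8 lung samples was measured on 1-colour arrays with Cy3-labelled cDNA, per the labels' protocols. The deposited intensity values come from Agilent Feature Extraction 10.7.3.1, per the file headers, and the processed signal used here is background-subtracted and detrended but not normalized between arrays. The deposited files also hold other flags per spot (well above background, saturated, outlier), as 0 or 1, and 0 spots were saturated. For later steps by the authors, nothing is given in the sources used here.

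Of 62976 spots 4259 were controls. After outlier spots were left out, replicate spots were averaged per probe, and each array's 75th percentile was subtracted on the log2 scale. The fit kept 29612 of 45598 probes, those that both arrays of 1 or more groups measured well above background. Between 48.1% and 71.3% of probes were well above background on an array. Accessions without versions were matched to a RefSeq table of GRCr8, which named 21215 probes. Group means were fitted over 8 arrays with limma 3.58.1 in R 4.3.3 (4 residual and 3.61 prior degrees of freedom), 2-sided, with Benjamini-Hochberg adjustment over all kept probes at 0.05. Normexp (on the median spot signal, which stood in for the mean), the spike-in scaling (7 of 10 E1A probes) and the other alternatives are described in the closing section. The fit was tested on simulated data. Figures used matplotlib 3.10.9.

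The named genes were all member probes, up to 4 called genes of each pathway list by size of difference in 3 comparisons, and the 5 genes most like Rela, of which 1 is not reported here. Members and lists were chosen with earlier results of these data known. Precision is limited by having 2 arrays a group.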

Additional observations from a re-analysis of the deposited data

How the results depend on the processing

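The 14 called member differences kept their direction under all 16 alternatives: normexp background correction (offset 50), quantile normalization, scaling to the E1A controls, no filter on dim probes, probes well above background on all 8 arrays (8 of the 14, since both Nfkb1 probes and Traf2 drop out), 1 probe per gene, fits of the 2 groups compared, the replicate block, and leaving out 1 array at a time. Scaling to the E1A controls moves every probe in the direction of these calls and could turn none of them. The settings that change only the filter, the probes per gene or the fit return the same difference. So does leaving out an array of a group not compared. Only normexp, quantile normalization and leaving out an array of the compared groups could thus turn a direction. Rela kept its call throughout, with limma adjusted p that reached at most 0.0249 for smoke against naive, 0.0428 for EV against smoke and 0.00518 for MSC against smoke. The number of member probes called in smoke against naive, 5 as reported, was 9 with spike-in scaling, 3 with all 8 arrays required and 1 to 5 with 1 array left out. In EV against smoke, 5 as reported, it was 9, 3 and 1 to 5, and 1 with no filter. In MSC against smoke, 4 as reported, it was 9 with spike-in scaling, 7 with quantile normalization and 2 to 5 with 1 array left out. In EV against MSC, 0 as reported, it was 3 under normexp and 5 with spike-in scaling, where 15269 and 11943 of all 29612 probes were called. The counts over all probes for the other comparisons are in the next paragraph. Quantile normalization ended the Nfkb1 call in EV against smoke. Without the first smoke array 10 of the 14 calls were lost, and the cause was not tested.

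Probes called over the whole array in smoke against naive numbered 13783 (27.5% of them higher), 21868 under normexp (10.6%), 10868 with quantile normalization (49.8%), 24758 with spike-in scaling (99.4%) and 4841 to 15339 with 1 array left out. In EV against smoke they numbered 11551 (72.9%), 20316 (88.8%), 8193 (51.8%), 22067 (0.920%) and 2074 to 13249. In MSC against smoke they numbered 17414 (71.2%), 23371 (89.1%), 15858 (47.8%), 26352 (0.789%) and 11626 to 17574, and 26853 with no filter. In EV against MSC they numbered 1731 (26.6%), 15269 (5.40%), 2133 (58.5%), 11943 (99.9%) and 0 to 1545, with 3450 where all 8 arrays were required and 0 with no filter, in the fit of the 2 groups and with the replicate block. In EV against naive there were 0, 2 with spike-in scaling and 0 to 40 with 1 array left out. In MSC against naive there were 0, 340 under normexp, 190 with quantile normalization, 1741 with spike-in scaling, 73 with all 8 arrays required, 1 with 1 probe per gene and 0 to 176 with 1 array left out.

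Under normexp the uncalled differences that turned were, in smoke against naive the dimmer Nfkb1 probe (-1.16) and Nfkbie (-0.42), in EV against smoke the dimmer Nfkb1 probe (0.82), in MSC against smoke the dimmer Nfkb1 probe (1.78), in EV against MSC Traf2 (-0.70) and Nfkb1 (-0.16), in EV against naive Nfkbib (-0.045), Traf2 (-0.14) and Nfkbie (-0.032), in MSC against naive Traf2 (0.55), Nfkbia (-0.054), Nfkb1 (0.24) and Rela (0.074). Under quantile normalization the uncalled differences that turned were, in EV against smoke Nfkbie (-0.15), in MSC against smoke Ikbkb (-0.26), in EV against MSC Nfkbib (0.14), in EV against naive Nfkb2 (0.021), in MSC against naive Nfkbia (-0.16). With spike-in scaling the uncalled differences that turned were, in EV against smoke Ikbkb (-2.10), Nfkbia (-1.96) and Nfkbie (-2.42), in MSC against smoke Ikbkb (-3.97) and Nfkbie (-3.12), in EV against MSC Nfkb2 (1.03), the dimmer Nfkb1 probe (0.97), Nfkbib (1.36) and Nfkbie (0.70), in EV against naive Nfkb2 (0.45) and the dimmer Nfkb1 probe (0.37), in MSC against naive Nfkb2 (-0.58), Ikbkb (-0.95), the dimmer Nfkb1 probe (-0.60), Nfkbib (-0.65), Nfkbia (-1.01) and Nfkbie (-0.040). With 1 array left out, uncalled differences whose range crossed 0 ran, in smoke against naive Ikbkb -0.10 to 0.23 and Nfkbie -0.21 to 0.46, in EV against smoke Nfkbie -0.11 to 0.21, in MSC against smoke Ikbkb -0.28 to 0.36 and the dimmer Nfkb1 probe -0.35 to 0.18, in EV against MSC Nfkb2 -1.17 to 0.16, Nfkbib -0.58 to 0.23, Traf2 -0.57 to 1.62 and Nfkb1 -0.050 to 2.09, in EV against naive Nfkb2 -0.26 to 0.21, the dimmer Nfkb1 probe -0.29 to 0.067, Nfkbib -0.17 to 0.64 and Nfkbie -0.16 to 0.51, in MSC against naive Nfkb2 -0.19 to 1.15, Ikbkb -0.21 to 0.43, Traf2 -1.20 to 1.00, Nfkbia -0.35 to 0.45 and Nfkb1 -1.70 to 0.44.

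Samples with the same replicate number share a slide row, and nothing in the labels pairs them otherwise. Their deviations correlated at -0.14 to 0.14 over 29612 probes. With the replicate block the member counts stayed at 5, 5 and 4 in the comparisons with calls, and its count of 0 probes in EV against MSC does not show a weaker effect.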

Other observations

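Within the MSC group the members did not vary together. Traf2 read -5.63 on the first and -3.43 on the second MSC array, the brighter Nfkb1 probe -4.61 and -2.47, and Nfkb2 -2.99 and -1.65, whereas Nfkbia read 3.42 and 2.62, Ikbkb -0.05 and -0.69, and Nfkbib -2.76 and -3.02. The second MSC array is also the one with the highest summed level of heart and skeletal muscle markers, 71.2 against 4.50 on the first, and the part of that difference in the members' levels was not tested.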
